A study of Mus musculus with 27 samples.

Results

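The miRNAs miR-155 and miR-146 were followed in small RNA sequenced from mouse endothelial cell medium. They were the rows of the deposited miRNA table whose names start with mmu-miR-155-, mmu-miR-146a or mmu-miR-146b, counting both arms of each hairpin. These were 6 of the 1927 rows, of which 769 held a count in any of the 9 media libraries. The series title concerns extracellular vesicles of endothelial cells given chylomicrons and inflammation of macrophages. Beside the 9 media libraries it held 18 mRNA libraries, from endothelial cells (EC) and peritoneal macrophages (PMAC). Each of the 3 sources carried 3 labels, SRBI knockdown, chylomicron-treated and control, with 3 libraries each. Chylomicrons are lipoproteins made by the intestine to transport dietary fat, and Scarb1 encodes SR-BI, a receptor for lipoproteins.

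The labels gave no mouse strain, dose, time or knockdown method. They also left unsaid which cells carried the knockdown behind the media and PMAC libraries, and whether any of the knockdown libraries received chylomicrons too. The column names of the chylomicron media libraries hold an unexplained number that those of control and SRBI knockdown media lack. The EC SRBI knockdown values were deposited under the name SRBI-KO, whereas the sample titles say knockdown. The extraction protocol names murine cell lines PL and PLA without saying which libraries they gave. Whether the 3 libraries of a group came from separate cultures was not stated, so each p-value below measures the spread between these libraries, which may be technical. For bulk libraries, fewer cells of a type and less RNA per cell cannot be told apart.

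The miR-155 hairpin is cut from the noncoding transcript Mir155hg, which is induced in macrophages and other cells by Toll-like receptor and cytokine signals. miR-155 is known for repressing inhibitors of inflammatory signalling, such as Socs1. miR-146a and miR-146b come from separate genes and are also linked to NF-kB. They are known for repressing the adaptors IRAK1 and TRAF6, which gives negative feedback on the same pathway. miRNAs leave cells in vesicles, in protein complexes and with lipoproteins, and are measured in medium for this reason.

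The mature 5p sequences are shown because they set which counts can be told apart. They are RefSeq sequences on GRCm38.p6, written 5′ to 3′, with the seed (bases 2 to 8) in capitals.
mmu-miR-155-5p: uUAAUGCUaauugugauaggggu
mmu-miR-146a-5p: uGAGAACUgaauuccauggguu
mmu-miR-146b-5p: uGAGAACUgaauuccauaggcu
The mature miR-155-5p lies at chr16:84714143-84714165 on the plus strand, miR-146a-5p at chr11:43374435-43374456 on the minus strand, and miR-146b-5p at chr19:46342790-46342811 on the plus strand. The seed UAAUGCU of miR-155-5p was in none of the other mature mouse miRNAs among the 1679 searched. The seed GAGAACU was shared by miR-146a-5p and miR-146b-5p and by no other of the 1679. Counted from the 5′ end, miR-146b-5p differed from miR-146a-5p by G18A and U21C, so 20 of 22 bases were the same. How the submitters counted reads that end before the first of these positions was not given in the sources used here.

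The 3 hairpins are shown for the arms compared further on, with the 5p and the 3p mature sequence of each in capitals.
Mir155: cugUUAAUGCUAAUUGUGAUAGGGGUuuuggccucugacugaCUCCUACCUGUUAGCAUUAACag
Mir146: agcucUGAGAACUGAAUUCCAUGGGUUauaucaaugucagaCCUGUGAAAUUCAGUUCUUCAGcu
Mir146b: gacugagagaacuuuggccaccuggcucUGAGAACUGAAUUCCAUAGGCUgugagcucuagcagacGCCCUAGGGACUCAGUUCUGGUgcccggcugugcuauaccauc
The Mir155 hairpin occupies chr16:84714140-84714204 and lies inside the long noncoding RNA gene Mir155hg at chr16:84713023-84715245. Mir146, the RefSeq symbol of the miR-146a hairpin, lies at chr11:43374397-43374461, and Mir146b at chr19:46342762-46342870.

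The media libraries held 2366856, 2786583 and 2180292 miRNA counts in SRBI knockdown, 1961209, 2114357 and 750534 in chylomicron and 2761105, 2474099 and 1625709 in control medium. Levels are given as CPM, a library's miRNA counts scaled to a total of 1e6, so they are shares of the sequenced miRNA and not amounts per volume of medium. The 3 5p arms had a count in every library and passed the filter for testing, a mean count of at least 5. miR-155-3p passed with a mean of 5.78 counts, miR-146b-3p missed it with 4.89, and miR-146a-3p was at 0 in all 9 libraries. Counting error alone gave 95% intervals (exact Clopper-Pearson) of at most ± 24.7% for miR-155-5p, ± 2.56% for miR-146a-5p and ± 3.80% for miR-146b-5p. The labels name no molecular identifiers, so reads can be copies of 1 molecule, and intervals and detection floors cover counting error only.

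In control medium miR-146a-5p was the highest member, miR-146b-5p came next and miR-155-5p was far lower. miR-146a-5p averaged 9101 ± 91.0 CPM (SD, n = 3) there and stood 15th among all miRNAs in each control library. miR-146b-5p averaged 5943 ± 373 CPM and stood between rank 17 and rank 21. miR-155-5p averaged 135 ± 17.2 CPM, and its best rank was 136. No range of the 3 overlapped another in control medium, and the order was the same in all 9 libraries.

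In SRBI knockdown medium miR-155-5p was higher than in either other medium, while both miR-146 5p arms were lower. miR-155-5p stood at 796, 1381 and 831 CPM in SRBI knockdown medium, from 1885, 3849 and 1811 counts. Chylomicron medium held 129, 59.1 and 89.3 CPM of it, from 253, 125 and 67 counts. Control medium held 120, 154 and 130 CPM, from 332, 380 and 211 counts. Every SRBI knockdown library was above every library of the other groups, whereas the chylomicron and control values overlapped. Within SRBI knockdown, replicate 2 stood apart, its 95% counting interval of 1338 to 1426 CPM lying above the 761 to 833 and 793 to 870 CPM of the other 2. miR-155-5p ranked 64 to 77 among the miRNAs of the SRBI knockdown libraries and 144 to 169 among those of the chylomicron libraries.

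miR-146a-5p stood at 5656, 7137 and 4559 CPM in SRBI knockdown medium, 10065, 8433 and 7806 CPM in chylomicron medium and 9046, 9206 and 9051 CPM in control medium. All 3 SRBI knockdown values lay under both other groups, and the 3 chylomicron values lay on both sides of the control values. miR-146b-5p stood at 3180, 3064 and 2507 CPM in SRBI knockdown medium, 5211, 4025 and 3575 CPM in chylomicron medium and 5697, 5759 and 6373 CPM in control medium. For this arm the 3 groups did not overlap, SRBI knockdown being lowest and control highest. In SRBI knockdown medium the rank was 22 to 28 for miR-146a-5p and 38 to 39 for miR-146b-5p.

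**Figure D1:**
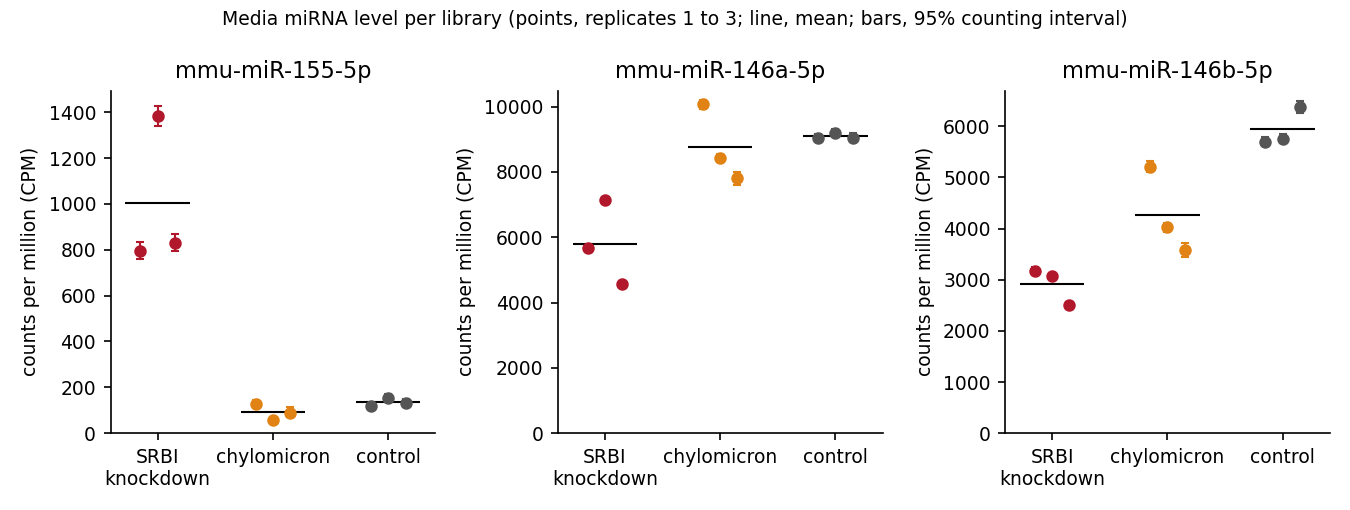
CPM of the 3 5p arms in each media library, with SRBI knockdown left, chylomicron in the middle and control right. Points are libraries and horizontal lines are group means. The 3 SRBI knockdown points of miR-155-5p lie between 796 and 1381 CPM, above all 6 others.

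Against control, SRBI knockdown medium held more miR-155-5p by a log2 fold change of 2.85 (SE 0.281, 95% interval 2.23 to 3.47, edgeR quasi-likelihood test, adjusted p = 8.53e-05, n = 3 each). That was the 6th highest log2 fold change of the 431 miRNAs tested. miR-146b-5p fell by 1.07 on the log2 scale (SE 0.171, 95% interval -1.44 to -0.69, edgeR adjusted p = 0.00447). miR-146a-5p fell by 0.70 (SE 0.167, 95% interval -1.07 to -0.33, edgeR adjusted p = 0.0379). All 3 5p arms passed the threshold of an adjusted p under 0.05, where 4.18% of all miRNAs tested did, 1.86% as higher and 2.32% as lower. All 3 were also free of overlap between the groups, against 22.5% of all miRNAs tested.

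The miR-146a-5p call was close to the threshold. It was lost in 9 of 16 alternative settings, with adjusted p between 0.00376 and 0.211 over the 16, although the value stayed below 0 in each. It was lost under library totals (-0.65, edgeR adjusted p = 0.0848) and under median-of-ratios scaling (-0.67, adjusted p = 0.0529). Leaving out control replicate 1, 2 or 3, SRBI knockdown replicate 1 or 3, or chylomicron replicate 2 also lost it, at values of -0.67, -0.69, -0.72, -0.63, -0.55 and -0.65 in that order.

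Between chylomicron and control medium no member passed the threshold, and neither did any of the 431 miRNAs tested (0%). At an unadjusted p under 0.05 edgeR counted 31 of 431, and DESeq2 called 0 after adjustment. miR-155-5p gave a log2 fold change of -0.56 (95% interval -1.15 to 0.039, edgeR adjusted p = 0.617), and -0.84 to -0.33 on leaving out a library. For miR-146a-5p it was -0.053 (95% interval -0.42 to 0.31, edgeR adjusted p = 0.989). For miR-146b-5p it was -0.48 (95% interval -0.85 to -0.10, unadjusted p = 0.0170, edgeR adjusted p = 0.617). miR-146b-5p was thus lower in 3 of 3 chylomicron libraries without passing the correction over all miRNAs. Groups free of overlap were found in 12.3% of all miRNAs tested here.

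Set against chylomicron medium, SRBI knockdown medium held more miR-155-5p by a log2 fold change of 3.41 (SE 0.290, 95% interval 2.77 to 4.05, edgeR adjusted p = 2.25e-05). That was rank 12 of 431 from the top. This comparison shares the SRBI knockdown libraries with the one against control. miR-146a-5p (-0.65, 95% interval -1.02 to -0.28, edgeR adjusted p = 0.0769) and miR-146b-5p (-0.59, 95% interval -0.96 to -0.22, edgeR adjusted p = 0.0979) did not pass, although each was lower in 3 of 3 libraries. Of all miRNAs tested 2.78% passed, 2.55% as higher, and 21.3% were free of overlap.

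**Figure D2:**
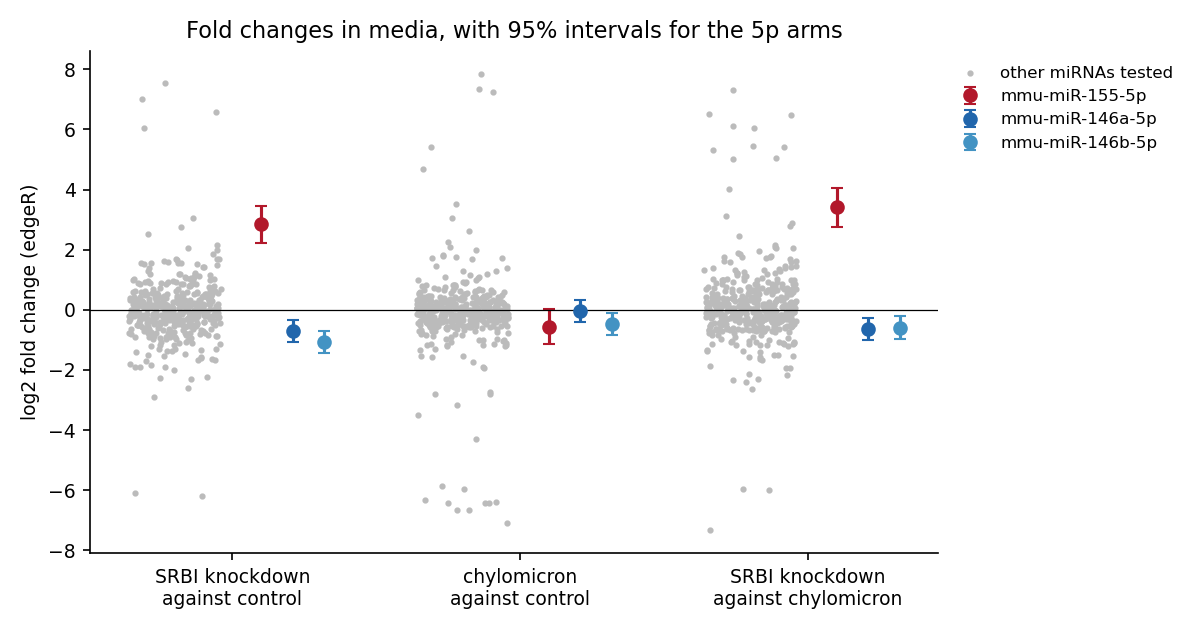
Log2 fold changes from edgeR with 95% intervals for the 3 5p arms in the 3 media comparisons. miR-155-5p stands at 2.85 and 3.41 in the comparisons of SRBI knockdown with control and with chylomicron, and the miR-146 arms lie at or below 0 throughout.

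Ratios of members within a library do not depend on how libraries are scaled. Each miR-155-5p count stood beside 7.10, 5.17 and 5.49 counts of miR-146a-5p in SRBI knockdown medium. In chylomicron medium the ratio was 78.0, 143 and 87.4, and in control medium 75.2, 59.9 and 69.7. The 3 groups did not overlap in this ratio. As log2 of miR-155-5p over miR-146a-5p, SRBI knockdown averaged -2.55 ± 0.244, chylomicron -6.63 ± 0.462 and control -6.09 ± 0.167 (SD, n = 3 each). The difference was 3.54 between SRBI knockdown and control, -0.54 between chylomicron and control and 4.08 between SRBI knockdown and chylomicron. The value between chylomicron and control was -0.28 without chylomicron replicate 2. Each difference had an exact two-sided permutation p of 0.1, the smallest that 3 against 3 libraries can give, and 0.12 after Benjamini-Hochberg adjustment over the 6 ratio tests.

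The seed-sharing arms also stood in a different proportion to each other. The log2 ratio of miR-146b-5p to miR-146a-5p averaged -0.97 ± 0.216 in SRBI knockdown medium, -1.05 ± 0.0901 in chylomicron medium and -0.62 ± 0.0959 in control medium. Its difference from control was -0.35 in SRBI knockdown and -0.43 in chylomicron medium, each without overlap and each with an exact permutation p of 0.1 (adjusted 0.12). Without SRBI knockdown replicate 2 the SRBI knockdown difference was -0.23. SRBI knockdown and chylomicron medium differed by 0.077, with overlap (exact permutation p = 0.7).

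**Figure D3:**
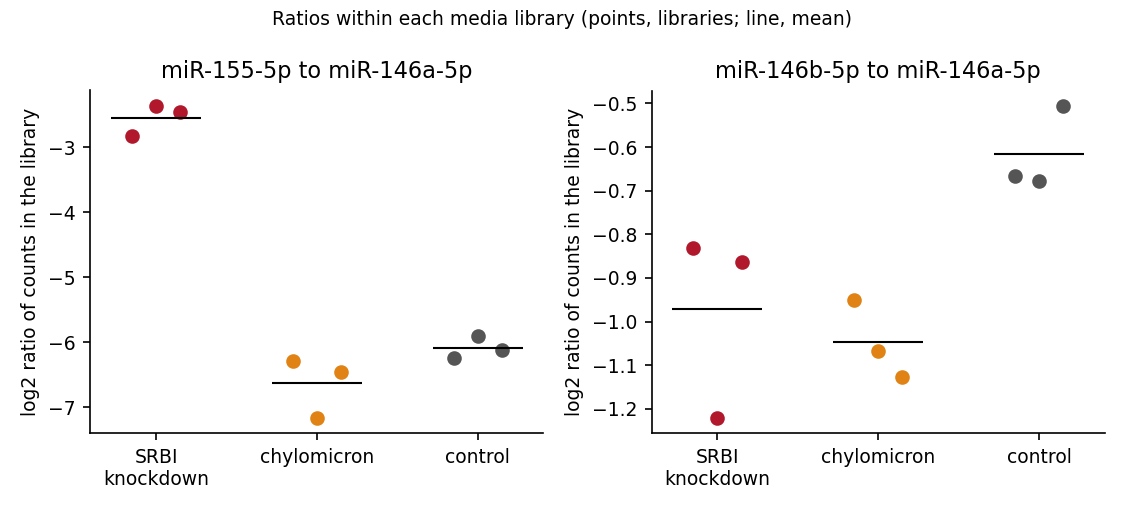
Within-library log2 ratios of miR-155-5p to miR-146a-5p and of miR-146b-5p to miR-146a-5p in the 9 media libraries, grouped as SRBI knockdown, chylomicron and control from left to right, with group means as bars. The first ratio averages -2.55 in SRBI knockdown against -6.63 in chylomicron and -6.09 in control medium.

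The 3p arms were rare. miR-155-3p had 4, 10 and 7 counts in SRBI knockdown medium, 11, 3 and 0 in chylomicron medium and 5, 9 and 3 in control medium. The groups overlapped, and no fold change is given from so few counts. As a share of both arms, miR-155-3p made up 0.278% in SRBI knockdown (21 of the counts, beside 7545 of the 5p arm), 3.05% in chylomicron (14, beside 445) and 1.81% in control medium (17, beside 923). Single libraries lay between 0.212% and 0.385% in SRBI knockdown and between 1.40% and 2.31% in control medium, without overlap. As the 3p counts overlapped, the lower share restates the higher 5p count and is not a separate result. Arm shares of other hairpins were not compared. The highest 95% exact binomial bound of an SRBI knockdown library, 0.792%, was above the lowest bound of a control library, 0.290%. In chylomicron medium the range was 0% to 4.17%, and the exact binomial bound of the library at 0 was 5.36%.

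miR-146b-3p had 0, 9 and 0 counts in SRBI knockdown medium, 10, 6 and 6 in chylomicron medium and 0, 13 and 0 in control medium. Every chylomicron library held it, whereas 1 of 3 SRBI knockdown and 1 of 3 control libraries did, and the groups overlapped. Its share of both arms was 0.0418% in SRBI knockdown, 0.103% in chylomicron and 0.0322% in control medium. miR-146a-3p had no count beside 43214 counts of its 5p arm in SRBI knockdown, 43430 in chylomicron and 62469 in control medium. A count of 0 allowed up to 1.08 to 4.0 CPM per library, the highest floor being that of chylomicron replicate 3, the library with the fewest counts.

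The miRNAs with the profile most like each 5p arm were found among 287 with a mean of at least 10 CPM. Likeness was the root-mean-square difference of log2(CPM + 1) profiles over the 9 libraries, each centred on its own mean, and is a description of libraries that share depth and labels. For miR-155-5p the nearest were miR-30d-5p (0.736), miR-151-3p (0.784) and miR-451a (0.845), set against a median of 1.58 over all candidates. miR-30d-5p averaged 8817 CPM in SRBI knockdown, 2215 in chylomicron and 2831 in control medium. Its groups stood in the same order of means as those of miR-155-5p, which the choice by likeness itself favours. For miR-146a-5p the nearest were miR-1198-5p (0.144), miR-106b-5p (0.165) and miR-744-5p (0.197), with a median of 0.539. For miR-146b-5p they were miR-143-3p (0.119), the joint entry miR-199a-3p/199b-3p (0.154) and the joint entry miR-28a-5p/28c (0.169), with a median of 0.607. miR-143-3p averaged 2422 CPM in SRBI knockdown, 3163 in chylomicron and 4231 in control medium.

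Some of these neighbours are markers of other cells. The 7 miRNAs listed as blood-cell markers summed to 1564 to 3204 CPM in SRBI knockdown, 697 to 1334 in chylomicron and 1177 to 1184 in control medium. Most of each sum came from the joint entry miR-486a-5p/486b-5p and from miR-451a, named above for its likeness to miR-155-5p. In SRBI knockdown medium the joint entry stood at 1346, 1707 and 992 CPM and miR-451a at 964, 1423 and 540 CPM. Control medium held 704, 752 and 722 CPM and 440, 382 and 412 CPM of them. miR-144-3p reached at most 4.92 CPM. Of the 4 that could be tested, 0 passed against control, where 4.18% of all miRNAs tested passed. Only miR-451a, an erythroid miRNA, passed against chylomicron medium (log2 fold change 1.77, edgeR adjusted p = 0.0146), where 2.78% of all did. Against control miR-451a gave 1.18 (edgeR adjusted p = 0.0576) and the joint entry 0.84 (edgeR adjusted p = 0.0784). Both were free of overlap with control, as were 22.5% of all miRNAs tested, whereas miR-142a-5p and miR-150-5p were not. Leukocyte miRNAs of the list were low. miR-142a-5p stood at 52.8, 61.7 and 20.6 CPM in SRBI knockdown, 20.8 to 35.7 in chylomicron and 33.0, 36.8 and 17.8 in control medium, which overlapped (0.56 against control, edgeR adjusted p = 0.599). miR-150-5p stood at 11.8, 11.8 and 8.26 CPM in SRBI knockdown, 6.63, 7.57 and 0 in chylomicron and 0, 8.49 and 16.0 in control medium. miR-142a-3p and miR-223-3p were at 0 in all 3 SRBI knockdown libraries, and each was also at 0 in 2 of 3 chylomicron libraries and in at least 2 of 3 control libraries. The part of the blood-cell markers in the miR-155-5p result was not tested.

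The 4 mural and fibroblast markers summed to 5317 to 7192 CPM in SRBI knockdown, 8636 to 9782 in chylomicron and 8737 to 10095 in control medium. The SRBI knockdown sums lay under both other groups, and the chylomicron sums overlapped control. Of the 4, miR-143-3p alone was free of overlap between SRBI knockdown and control medium, where 22.5% of all miRNAs tested were. miR-214-3p stood at 2079, 2376 and 4286 CPM in SRBI knockdown and 3656, 4252 and 4182 in control medium. miR-143-3p, a smooth muscle and fibroblast miRNA, was the 1 of 4 that passed against control (-0.85, edgeR adjusted p = 0.0379). Of all miRNAs tested 4.18% passed there. None of the 4 markers was at 0 throughout. The part of these markers in the miR-146 result was not tested. The endothelial marker miR-126a, both arms together, stood at 670 to 950 CPM in SRBI knockdown, 498 to 1004 in chylomicron and 720 to 901 in control medium, with no call. The hepatocyte miRNA miR-122-5p stood at 46.9 to 61.0, 32.2 to 61.3 and 39.8 to 63.9 CPM in the same order of media, also with no call.

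Of 15 other miRNAs linked to NF-kB and inflammation, 14 were tested beside the members. Against control, SRBI knockdown medium had 0 of 14 higher and 1 lower, where 1.86% of all miRNAs tested were higher and 2.32% lower. The 1 was miR-21a-5p (-1.67, edgeR adjusted p = 3.10e-05), an abundant miRNA of many cell types. The median log2 fold change of the list was 0.23, against -0.033 over all miRNAs. Chylomicron against control gave 0 calls in either direction and a median of -0.10, against -0.063 over all miRNAs. SRBI knockdown against chylomicron gave 1 higher, miR-221-3p (0.86, edgeR adjusted p = 0.0399), and 1 lower, miR-21a-5p (-1.56, edgeR adjusted p = 2.25e-05), where 2.55% of all were higher and 0.232% lower, with a median of 0.31 against 0.012.

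The mRNA libraries show the precursor of miR-155 in the cells. They held 16758727 to 55874954 reads assigned to genes. Levels are given as reads per 1e6 reads of the library (RPM) and tests as limma on log2 of the normalized count plus 1. Scarb1, the gene that the knockdown label names, averaged 117 ± 3.14 RPM in EC SRBI knockdown, 235 ± 34.8 in EC chylomicron and 281 ± 26.7 in EC control libraries (SD, n = 3 each). The EC SRBI knockdown libraries stood in a table of their own, scaled separately and without controls, so they were not tested and their levels are only set beside the others. In macrophages Scarb1 averaged 46.6 ± 4.11 RPM in SRBI knockdown, 40.3 ± 2.87 in chylomicron and 58.9 ± 1.47 in control libraries, and it was lower than control in both (limma log2 fold change -0.26, adjusted p = 0.0127, and -0.43, adjusted p = 1.98e-04). The PMAC chylomicron libraries, at 37.1 to 42.4 RPM, held less Scarb1 than those labelled SRBI knockdown, at 43.2 to 51.2 RPM, a difference that was not tested. The knockdown value was no longer called without PMAC SRBI knockdown replicate 1 (-0.24, limma adjusted p = 0.0559) or 2 (-0.20, limma adjusted p = 0.0812).

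The EC SRBI knockdown libraries also stood apart in endothelial markers. The 5 listed (Cdh5, Pecam1, Kdr, Tek and Emcn) summed to 121 to 129 RPM in EC SRBI knockdown, 436 to 607 in EC chylomicron and 519 to 607 in EC control libraries. Cdh5, the endothelial cadherin, averaged 46.2 ± 3.19 RPM in EC SRBI knockdown, 304 ± 61.7 in EC chylomicron and 363 ± 35.1 in EC control libraries. The 5 macrophage markers (Adgre1, Csf1r, Cd68, Itgam and Lyz2) summed to 2.53 to 4.24, 2.31 to 3.56 and 3.70 to 4.55 RPM in the same order of groups. Adgre1, which encodes F4/80, was at 0 in all EC SRBI knockdown and all EC chylomicron libraries.

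In endothelial cells Mir155hg stood at 4.92, 5.85 and 4.40 RPM in SRBI knockdown libraries. EC chylomicron libraries held 0.239, 0.140 and 0.242 RPM, and EC control libraries 0.448, 0.257 and 0.200 RPM. The SRBI knockdown values rested on 102, 98 and 75 reads, and the other 6 libraries held 6 to 19 reads each. All 3 EC SRBI knockdown libraries were above the 6 others, across tables scaled separately and without a test. The share of all genes that lay apart in this way was not computed, so the separation cannot be called particular to Mir155hg. Chylomicron and control cells overlapped and did not pass (limma log2 fold change -0.48, adjusted p = 0.764). The part of the lower endothelial markers in the Mir155hg level was not tested.

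In macrophages Mir155hg was higher in both labelled groups than in control. It stood at 43.4, 50.4 and 35.3 RPM in SRBI knockdown, 46.0, 35.9 and 64.2 in chylomicron and 3.06, 1.03 and 3.57 in control libraries. Neither labelled group overlapped control (47.5% of all genes did not for SRBI knockdown and 42.5% for chylomicron), and the 2 overlapped each other. The log2 fold change was 4.31 (SE 0.310, limma adjusted p = 6.62e-09) for SRBI knockdown and 4.50 (SE 0.310, limma adjusted p = 3.61e-09) for chylomicron. The 2 comparisons share the PMAC control libraries. Of all 13630 genes tested, 30.1% passed between SRBI knockdown and control and 33.4% between chylomicron and control. The 5 macrophage markers summed to 31731 to 35446 RPM in SRBI knockdown, 27414 to 29508 in chylomicron and 46945 to 49450 in control libraries. None of the 5 was at 0. Lyz2 made up most of each sum and averaged 26723 RPM in SRBI knockdown, 21888 in chylomicron and 41036 in control libraries. In the same order Csf1r averaged 1206, 1198 and 2036 RPM and Cd68 1043, 1273 and 1236. Itgam averaged 877, 682 and 625 RPM and Adgre1 3510, 3210 and 3424, so the markers did not move together. The part of the markers in the Mir155hg result was not tested.

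**Figure D4:**
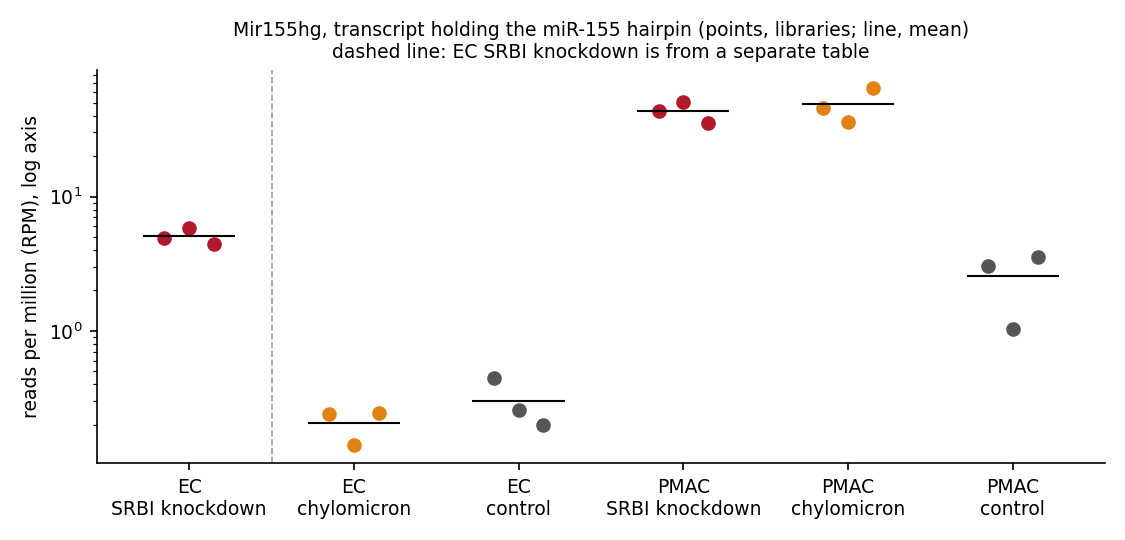
Mir155hg in RPM, on a log axis, in the 18 mRNA libraries, with SRBI knockdown left, chylomicron in the middle and control right for EC and for PMAC. Points are libraries and bars are group means; EC SRBI knockdown averages 5.06 against 0.302 in EC control, and PMAC SRBI knockdown averages 43.0 against 2.55 in PMAC control.

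For miR-146 only the hairpin genes were followed, Mir146 of 65 bases and Mir146b of 109 bases, whereas Mir155hg spans 2223 bases. Both had few counts in these mRNA libraries. No longer miR-146 transcript was followed, so these counts do not show how much miR-146 precursor the cells held. Mir146b had 48.5, 29.6 and 24.05 normalized counts in PMAC SRBI knockdown, 9.66, 11.3 and 42.4 in PMAC chylomicron and 13.8, 0 and 5.07 in PMAC control libraries. It passed for SRBI knockdown (log2 fold change 2.91, limma adjusted p = 0.0153) and not for chylomicron (2.00, limma adjusted p = 0.0849), where the groups overlapped. The SRBI knockdown call was lost without its replicate 1 (2.63, limma adjusted p = 0.0796) and without PMAC control replicate 2 (1.83, adjusted p = 0.0747), the library at 0. For chylomicron the value was 0.91 (limma adjusted p = 0.382) without that same library and 1.36 (adjusted p = 0.292) without chylomicron replicate 3, and it was called without PMAC control replicate 1 (2.86, adjusted p = 0.0219). Mir146 had 5.60 to 18.3, 8.49 to 24.8 and 6.76 to 19.9 normalized counts in PMAC SRBI knockdown, chylomicron and control libraries and was not called. The Mir155 hairpin itself was at 0 in all mRNA libraries, also in those where Mir155hg was high. In EC both Mir146 and Mir146b were too low to test.

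Reported targets were followed in the cell mRNA, 15 for miR-155 and 12 for miR-146, as listed from work in mouse and human cells. These are transcripts of the cells and not of the medium. Both lists were chosen with earlier results of these data known, so their shares and medians beside all genes are descriptions. In EC chylomicron against control, 8.45% of 15595 genes passed, 5.16% as higher and 3.28% as lower. Of 13 miR-155 targets tested 2 passed, both higher: Cebpb, a transcription factor (1.09, limma adjusted p = 3.49e-05), and Fos, a subunit of AP-1 (1.29, limma adjusted p = 0.0244). The median log2 fold change of the list was 0.093, against -0.018 over all genes. Fos stood at 12.7, 37.4 and 14.5 RPM in EC chylomicron and 9.49, 5.78 and 8.14 RPM in EC control libraries, chylomicron replicate 2 being the highest. Without that library the log2 fold change was 0.79 (limma adjusted p = 0.0145). Leaving out EC control replicate 1, 2 or 3 lost the call (limma adjusted p = 0.0503, 0.0932 and 0.0667), as did limma without a variance trend (adjusted p = 0.228).

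Socs1, the inhibitor of cytokine signalling and a much studied miR-155 target, stood at 2.65, 3.62 and 3.19 RPM in EC chylomicron and 2.81, 3.38 and 3.32 RPM in EC control libraries, which overlapped. EC SRBI knockdown libraries, scaled separately and not tested, held 0.940 to 1.25 RPM of Socs1. Not every listed miR-155 target was lower there: Bcl6 stood at 38.0 to 43.3 RPM, beside 26.8 to 27.8 RPM in EC control libraries. Of 11 miR-146 targets tested 2 passed in EC, both higher: Relb, a subunit of NF-kB (1.04, limma adjusted p = 3.76e-05), and Fas, a death receptor (0.69, limma adjusted p = 0.00506). The median of that list was -0.0025, against -0.018 over all genes. Traf6 (-0.057, limma adjusted p = 0.820) and Irak1 (0.12, limma adjusted p = 0.518), the signalling targets that define miR-146 feedback, did not pass.

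In macrophages the miR-155 targets moved in both directions. For SRBI knockdown against control, 14 were tested, 5 rose and 6 fell, where 14.7% of all genes rose and 15.5% fell. The groups were free of overlap in 13 of the 14, against 47.5% of all genes. Given how the list was chosen, such shares are no independent evidence about the targets. The median of the list was -0.17, against 0.0054 over all genes. For chylomicron against control 4 of 14 rose and 7 fell, where 16.0% of all genes rose and 17.4% fell. The groups were free of overlap in 10 of the 14, against 42.5% of all genes, and the median was -0.15, against -0.012. The largest change was in Socs1, which stood at 156, 134 and 149 RPM in SRBI knockdown, 141, 143 and 130 in chylomicron and 21.5, 10.9 and 14.3 in control libraries. Its log2 fold change was 3.37 (SE 0.154, limma adjusted p = 1.53e-11) in SRBI knockdown and 3.32 (SE 0.154, limma adjusted p = 1.76e-11) in chylomicron. Socs1 and Mir155hg were therefore both higher in the same libraries.

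Bcl6, a transcriptional repressor, was lower in both groups, at 7.62, 7.58 and 7.16 RPM in SRBI knockdown, 6.02, 5.07 and 6.33 in chylomicron and 26.4, 27.98 and 28.4 in control libraries. The log2 fold change was -1.81 (limma adjusted p = 4.92e-10) for SRBI knockdown and -2.13 (limma adjusted p = 5.13e-11) for chylomicron. Bach1, a repressor of heme oxygenase, fell in both, by 0.60 (limma adjusted p = 2.90e-07) in SRBI knockdown and by 0.58 (limma adjusted p = 4.44e-07) in chylomicron. The transcription factor Maf rose in SRBI knockdown (0.69, limma adjusted p = 2.89e-06) and gave -0.11 in chylomicron libraries (limma adjusted p = 0.307). Fos fell in chylomicron libraries, by 1.39 (limma adjusted p = 4.03e-07), and in SRBI knockdown libraries, by 0.50 (limma adjusted p = 0.00974).

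Among 11 miR-146 targets tested in macrophages, 4 rose and 2 fell in SRBI knockdown, and likewise 4 rose and 2 fell in chylomicron. Over all genes 14.7% rose and 15.5% fell in SRBI knockdown, and 16.0% rose and 17.4% fell in chylomicron. Their medians were 0.15 in SRBI knockdown and 0.071 in chylomicron, against 0.0054 and -0.012 over all genes. Traf6, the ubiquitin ligase of Toll-like receptor signalling, rose in SRBI knockdown (0.46, limma adjusted p = 6.14e-05) and in chylomicron (0.50, adjusted p = 2.12e-05). The kinase Irak1 fell in both, by 0.22 in SRBI knockdown (limma adjusted p = 0.00103) and by 0.24 in chylomicron (adjusted p = 5.21e-04). The receptor Notch1 rose by 0.78 in SRBI knockdown (limma adjusted p = 1.70e-09) and by 0.22 in chylomicron (adjusted p = 0.00238). Fas rose by 0.30 in SRBI knockdown (limma adjusted p = 2.25e-04) and by 0.15 in chylomicron (adjusted p = 0.0332). The chemokine receptor Cxcr4 fell by 1.73 in SRBI knockdown (limma adjusted p = 0.00436) and by 1.70 in chylomicron libraries (adjusted p = 0.00466). It stood at 0.313 to 0.684 RPM in SRBI knockdown, 0.339 to 0.553 in chylomicron and 1.38 to 2.08 RPM in control libraries.

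**Figure D5:**
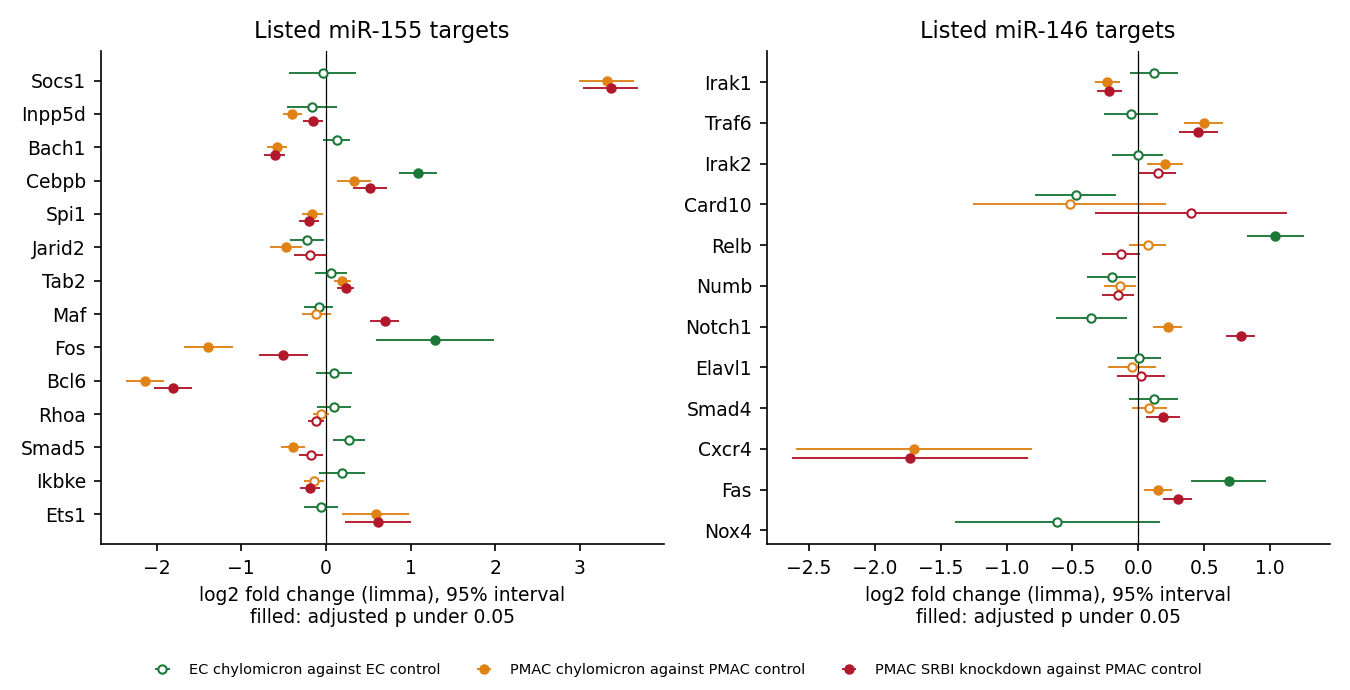
Limma log2 fold changes with 95% intervals of the reported targets of miR-155 and miR-146 in EC chylomicron, PMAC chylomicron and PMAC SRBI knockdown, each against its control, filled where the adjusted p was under 0.05. Socs1 lies at 3.32 and 3.37 in the PMAC comparisons and at -0.040 in EC, and Bcl6 lies at -2.13 and -1.81 in PMAC.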

How the data were processed

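Small RNA libraries were made with the NEBNext Multiplex Small RNA kit and mRNA libraries with the Illumina TruSeq Stranded mRNA kit, per the labels' protocols. Builds GRCm38 and mm10 and the tools STAR (2.7.3a), Subread (1.6.3), featureCounts and bcl2fastq appear in the submitters' processing notes, which give no roles. The deposited miRNA table holds whole-number counts per mature miRNA, with 35 entries under a joint name, none of them a member. The 3 deposited mRNA tables hold a signal, read counts divided by a factor per library. Whole reads were recovered within 0.01 for at least 99.97% of nonzero values of each library.

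The members and lists were chosen with earlier results of these data known. miRNA counts were tested with edgeR 4.0.16 (quasi-likelihood, TMM, mean count of at least 5, all 9 media libraries in 1 fit, 431 miRNAs). mRNA was tested with limma 3.58.1 on log2(normalized count + 1), for means of at least 10, with an empirical Bayes trend, 6 EC libraries in 1 fit and 9 PMAC libraries in another. As that scale adds 1, it understates changes of low genes. Tests were two-sided, with Benjamini-Hochberg adjusted p under 0.05 as the threshold. An edgeR SE is the log2 fold change over the root of its F statistic. Precision rested on 750534 to 2786583 miRNA counts per library. Named were all members, the 3 most alike miRNAs of each 5p arm, and up to 4 called members of each list and comparison by smallest p. Scarb1, values printed for a named gene in other comparisons, Traf6, Irak1 and Socs1 in EC, and marker miRNAs fall outside that rule and were chosen after values were seen. 1 listed gene is not reported here and stands in no count of a list. Both tests were checked on simulated data. R 4.3.3 and Python 3.11.15 were used. DESeq2 1.42.0, other scalings, filters and pseudocounts, edgeR on recovered reads, a replicate block and leaving out each library were tried as alternatives. Of the 36 pairs of media libraries 0 held identical values.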

Additional observations from a re-analysis of the deposited data

Results flagged for a closer look

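Among 23 reported targets tested in both cell types, 4 had chylomicron and control groups that did not overlap in either and lay in opposite directions in endothelial cells and macrophages. Fos gave a limma log2 fold change of 1.29 in EC chylomicron against control and -1.39 in PMAC chylomicron against control, the EC value being 0.79 without EC chylomicron replicate 2. Of the 4 genes Fos alone passed the test in both cell types, while the other 3 passed in PMAC and not in EC. For Notch1 the values were -0.36 in EC (limma adjusted p = 0.113) and 0.22 in PMAC. For Smad5, a signal transducer of bone morphogenetic proteins, they were 0.27 in EC (limma adjusted p = 0.0835) and -0.39 in PMAC, and for Bach1 0.13 in EC (limma adjusted p = 0.402) and -0.58 in PMAC. Each difference between the cell types was not tested, since the tables were scaled separately. Over all 12461 genes tested in both, 647 (5.19%) lay apart in opposite directions and 870 (6.98%) apart in the same direction.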

How the results depend on the processing

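Over 16 alternatives miR-155-5p stayed called in SRBI knockdown medium, at 2.59 to 3.05 against control and 3.16 to 3.68 against chylomicron medium, the same ranges as on leaving out each library. miR-146b-5p stayed called against control at -1.09 to -0.97. For miR-146a-5p against control, leaving out a library gave -0.85 to -0.55, and the call was also lost with median-of-ratios scaling (-0.67), library totals (-0.65) and a fit of the 2 groups alone (-0.63). In chylomicron against control miR-146a-5p turned to 0.023 without chylomicron replicate 3 and to 0.0049 without SRBI knockdown replicate 3, never called; leave-one-out values were -0.11 to 0.023. In SRBI knockdown against chylomicron miR-146a-5p was called with DESeq2 (-0.65), no filter (-0.66) and a mean count of at least 50 (-0.65), with leave-one-out values of -0.78 to -0.56 (called without SRBI knockdown replicate 2). miR-146b-5p was called there with DESeq2 (-0.60) and a mean count of at least 50 (-0.59). The causes were not tested. The member ratios kept their direction in all 8 alternatives each, although leaving out a library moved miR-155-5p over miR-146a-5p in chylomicron against control to between -0.72 and -0.28.

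Whether replicate numbers pair libraries was not stated, and the main fits used no pairing. Same-numbered deviations from group means had r of -0.189 to 0.225 in media, -0.161 to 0.175 in EC and -0.0948 to 0.0746 in PMAC. With 3 libraries a group such values cannot exclude pairing. With the replicate block miR-146a-5p was called against chylomicron (-0.65, edgeR adjusted p = 0.0305). The block gave 33 called miRNAs in SRBI knockdown against control and 29 against chylomicron, where the main fit gave 18 and 12. It also gave 4 called miR-146 targets in EC.

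Called miRNAs in SRBI knockdown against control were 18 (8 higher, 10 lower), 14 with library totals (9 higher, 5 lower), 50 with DESeq2, 46 without a filter, 33 at a mean count of at least 50, and 6 to 48 on leaving out a library. Against chylomicron they were 12, with 45 under DESeq2, 41 without a filter, 24 at a mean count of at least 50, 5 in a fit of 2 groups and 5 to 43 on leaving out a library. Chylomicron against control gave 4 without a filter. Without the trend 1 miR-155 and 1 miR-146 target were called in EC, 4 miR-146 targets in PMAC chylomicron and 6 miR-155 targets in PMAC SRBI knockdown. On leaving out a library the miR-155 targets called in EC numbered 1 to 3. EC genes called were 1317, against 587 without the trend and 744 and 803 without EC control replicates 1 and 2. edgeR on recovered reads called 1301 genes in EC, 4489 in PMAC chylomicron and 4238 in PMAC SRBI knockdown. Depth limits the 3p arms and Mir146b, at most 13 counts or 48.5 normalized counts a library.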
